A study of Mus musculus with 24 samples.

Results

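The comparison described here is loss of Notchless in intestinal crypts that kept Apc, 48 h after induction. Members were the samples titled d2_NlecKO and d2_Control, 3 libraries of each, 6 of the 24 libraries in the series. Notchless (gene Nle1, ENSMUSG00000020692) was a conditional knockout in the NlecKO mice, and the labels call their comparators Control. Neither group carried the Apc knockout that the other d2 groups of the series did. All mice, Control included, were 5 to 10 weeks old and received tamoxifen, the drug that activates an inducible Cre recombinase, at 56 mg/kg by intraperitoneal injection on 3 consecutive days. Which Cre driver was used, and which alleles the Control mice carried, is not given in the sources used here. Crypts came from 5 to 10 cm of jejunum, and poly(A) RNA was sequenced, with 1 library from each of 3 mice per group. Every group value below therefore has n = 3 mice.

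Notchless is a WD40-repeat protein that binds the precursor of the large ribosomal subunit in the nucleolus and is released from it by the giant ATPase Mdn1, a step needed before the particle leaves for the cytoplasm. When assembly of the large subunit stalls, free ribosomal proteins are known to bind Mdm2, the ligase that marks p53 for degradation, and p53 then accumulates and switches on arrest and death genes. Jejunal crypts hold stem cells, fast-cycling progenitors, Paneth cells and newly formed secretory cells, and their turnover rests on high ribosome production.

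Nle1 itself was at 20.1, 27.9 and 20.1 CPM (counts scaled to the total of the library) in Control replicates 1, 2 and 3, and at 7.30, 5.52 and 7.25 CPM in NlecKO replicates 1, 2 and 3. Every NlecKO library was below every Control library, with a log2 fold change (NlecKO over Control) of -1.76 ± 0.17 (SE) and an adjusted p of 2.5e-06. NlecKO crypts kept 29.4% of the Control mean. Unless stated otherwise, adjusted p-values are from edgeR's quasi-likelihood test on all 24 libraries with Benjamini-Hochberg adjustment over the 16552 genes tested, and a gene is said to have risen or fallen where that value was under 0.05.

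The 6 libraries held 18.19M to 26.47M estimated counts. Between 99.92% and 99.94% of the counts lay in the genes tested, and libraries of 1 group correlated at 0.982 to 0.993 (Pearson's r across genes on log2 CPM). Epcam, Cdh1, Vil1 and Krt8, which define epithelium, and Lgr5, Olfm4 and Lyz1, which define crypt cells, were detected in all 6. Ptprc, the pan-leukocyte marker, was at 34.5 to 68.5 CPM, so the crypt preparations also held leukocyte RNA. Col1a1, a fibroblast marker, was at 1.74 to 8.79 CPM. In whole crypts, fewer cells of a type and less RNA per cell cannot be told apart.

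On day 2, 2581 genes passed the test, 15.6% of those tested. Of these, 1214 rose (7.33%) and 1367 fell (8.26%), and 525 changed by at least 2-fold, 373 of them upward. The median log2 fold change of all genes tested was 0.003. The 3 libraries of each group did not overlap in 29.8% of all genes, 14.5% upward and 15.3% downward. Of the 16552 genes tested, DESeq2 called 1500 higher and 1450 lower on day 2. At an unadjusted p under 0.05, 2288 were higher and 2489 lower. These shares and counts are the background for each list below. A fit on the 6 day 2 libraries alone, which has fewer libraries to estimate the spread, called 279 genes, 273 of them among the 2581, and a fit on the 12 Apc-intact libraries called 1502. Leaving out NlecKO replicate 3 left 1206 calls and leaving out Control replicate 2 left 1673.

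**Figure D1:**
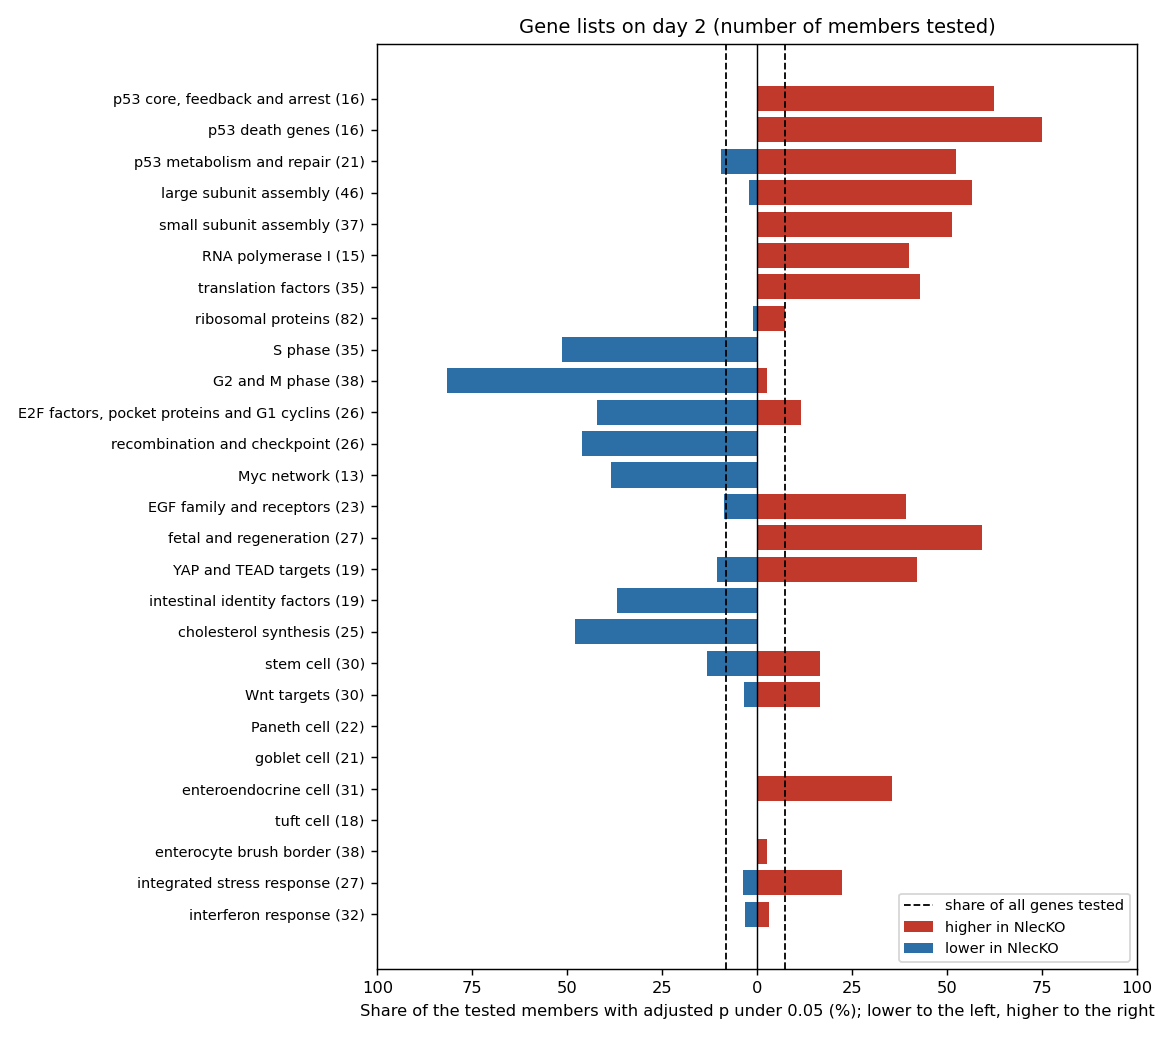
Share of the tested members of each gene list that passed the test on day 2, in percent, higher in NlecKO to the right and lower to the left, with dashed lines at the shares over all genes tested (7.33% and 8.26%). The p53 lists and the ribosome assembly lists reach well to the right of the line, and the G2 and M phase list (31 of 38 members) reaches farthest to the left.

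The p53 element, 2 copies of a 10-base half-site set end to end, was searched in the 300 bases around each start site (250 before and 50 after) in the RefSeq promoter table of GRCm38.p6. Up to 2 of the 20 bases could differ, the central C and G of each half-site could not, and the element reads alike on both strands. It was found in 106 of 27025 promoters (0.392%) and in 0.486% of the promoters of genes tested. Among genes that rose on day 2 and had a promoter in the table, 13 of 861 held it (1.51%), and among genes that fell, 4 of 940 (0.426%). These 13 were Ccng1, Cd80, Cdkn1a, Ckap2, Etnk1, Gtse1, Immp1l, Pid1, Prkar1a, Rhbdd1, Rps27l, S100a3 and Zfp365. The 4 that fell were Bbs2, Serhl, Cdc6 of the S phase list and Tfdp2 of the E2F list. A match is a description of the letters, and its absence from this window says nothing about p53. Sequences of 6 of the 13 that rose follow because these genes recur below, each 5′ to 3′ on the gene's strand with the element in capitals.
Cdkn1a (chr17:29090906-29090969, plus strand): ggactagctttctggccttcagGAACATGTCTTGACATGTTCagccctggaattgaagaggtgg
Ccng1 (chr11:40755440-40755503, minus strand): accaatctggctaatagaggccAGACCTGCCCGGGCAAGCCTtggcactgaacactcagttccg
Zfp365 (chr10:67912684-67912747, minus strand): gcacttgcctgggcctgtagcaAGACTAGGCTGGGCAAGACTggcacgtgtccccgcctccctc
Gtse1 (chr15:85859923-85859973, plus strand): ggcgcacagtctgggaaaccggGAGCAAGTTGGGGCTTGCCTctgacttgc
Ckap2 (chr8:22185981-22186044, minus strand): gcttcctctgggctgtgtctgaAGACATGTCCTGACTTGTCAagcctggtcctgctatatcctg
Rps27l (chr9:66946274-66946337, plus strand): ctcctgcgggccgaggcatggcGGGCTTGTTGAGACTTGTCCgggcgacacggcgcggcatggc

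Genes that p53 is known to switch on rose across feedback, arrest, death and metabolism, while the p53 message did not. Of 16 tested genes for p53, its feedback and arrest, 10 rose and none fell, with a median log2 fold change of 1.30. Trp53, which encodes p53, was at 91.0, 126 and 91.4 CPM in Control and 103, 90.1 and 107 CPM in NlecKO, a log2 fold change of -0.04 (adjusted p = 0.87). Mdm2, the ligase that p53 induces and that degrades it, was at 50.8, 42.6 and 58.3 CPM in Control and 103, 139 and 202 CPM in NlecKO. Its groups lay apart, with NlecKO replicate 3 highest, and the log2 fold change was 1.55 ± 0.18 (SE; adjusted p = 2.0e-05). Ppm1d, a phosphatase that also limits p53, was at 14.7, 17.6 and 15.5 CPM against 16.5, 16.8 and 19.3 CPM and did not pass (adjusted p = 0.47).

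Cdkn1a, the p21 inhibitor of cyclin-dependent kinases, was at 135, 111 and 142 CPM in Control and 362, 497 and 704 CPM in NlecKO. All 3 NlecKO libraries stood far above Control and replicate 3 was highest (log2 fold change 2.01 ± 0.21, adjusted p = 9.8e-06). Ccng1, cyclin G1, which acts in p53 feedback, was at 86.9, 88.9 and 113 CPM against 320, 401 and 591 CPM. Zmat3, a p53-induced RNA-binding protein, was at 23.3, 25.7 and 29.3 CPM against 111, 142 and 209 CPM. Both groups lay apart for both genes, and the log2 fold changes were 2.18 ± 0.19 for Ccng1 and 2.56 ± 0.20 for Zmat3. Gtse1, a p53-binding protein of G2 and S phase cells, was at 21.0, 37.4 and 27.6 CPM against 71.1, 74.8 and 110 CPM (log2 fold change 1.57 ± 0.26). It rose although most genes of the G2 and M phases fell. Gdf15, a secreted factor induced in stressed tissue, was at 2.73, 5.08 and 5.68 CPM against 36.2, 56.1 and 96.4 CPM (log2 fold change 3.77 ± 0.40). Zfp365, a p53-induced zinc finger gene, was at 0.0582, 0.148 and 0.589 CPM in Control and 4.52, 11.5 and 21.8 CPM in NlecKO, so its Control libraries were near the limit of detection. Not every arrest gene moved. Gadd45a was at 68.3, 46.0 and 63.4 CPM against 63.6, 64.1 and 49.2 CPM, and its groups overlapped (log2 fold change -0.01, adjusted p = 0.99).

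Of 16 tested p53 death genes, 12 rose and none fell (median log2 fold change 0.998). Among receptors, Eda2r was at 1.75, 3.86 and 3.80 CPM in Control and 35.4, 39.5 and 63.1 CPM in NlecKO (log2 fold change 3.81 ± 0.31). Tnfrsf10b, the TRAIL death receptor, was at 13.3, 11.9 and 13.4 CPM against 23.6, 28.3 and 34.8 CPM (log2 fold change 1.17 ± 0.13). Neither receptor's groups overlapped. Among BCL-2 family members, Bax, which permeabilizes mitochondria, was at 59.8, 79.6 and 71.1 CPM against 169, 201 and 263 CPM (log2 fold change 1.59 ± 0.16). Bbc3 (Puma), a BH3-only activator of Bax, was at 6.69, 14.7 and 9.53 CPM against 28.8, 23.5 and 34.4 CPM (log2 fold change 1.47 ± 0.26). Their groups lay apart. Pmaip1 (Noxa), the other BH3-only gene classed with p53, was at 26.1, 13.7 and 27.95 CPM against 28.7, 37.0 and 30.6 CPM and did not pass (log2 fold change 0.51, adjusted p = 0.13). Phlda3, an inhibitor of Akt, was at 3.20, 7.38 and 8.35 CPM against 69.1, 81.3 and 139 CPM, with no overlap. Bcl2l11 (Bim) was at 19.0, 19.4 and 22.3 CPM against 19.3, 18.5 and 16.9 CPM (adjusted p = 0.51). Control itself differed between days for Eda2r, which was lower on day 2 than on day 1.

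Of 21 tested p53 genes of metabolism and DNA repair, 11 rose and 2 fell (median log2 fold change 0.64). Sesn2, a stress-induced inhibitor of mTORC1, was at 20.1, 24.1 and 25.1 CPM in Control and 72.1, 77.0 and 108 CPM in NlecKO (log2 fold change 1.89 ± 0.22). Its relative Sesn1 was at 79.5, 43.8 and 71.8 CPM against 70.3, 69.4 and 42.5 CPM and its groups overlapped (adjusted p = 0.87). Polk, a translesion DNA polymerase, was at 12.2, 14.1 and 12.96 CPM against 27.7, 30.2 and 39.0 CPM (log2 fold change 1.30 ± 0.17). Ddb2, a nucleotide excision repair factor, went the other way, at 10.1, 11.2 and 11.2 CPM against 7.24, 7.43 and 5.998 CPM (log2 fold change -0.65 ± 0.14, adjusted p = 0.0044). Epha2, an ephrin receptor, rose from 50.2, 37.2 and 43.5 CPM to 87.2, 126 and 167 CPM. Across the 3 p53 lists, 10, 10 to 12 and 11 members were higher whichever of the 6 libraries was left out, and 8, 7 and 9 in the fit on 6 libraries. The second member that fell, Trp53i11, lost its call without Control replicate 2 and without NlecKO replicate 3.

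**Figure D2:**
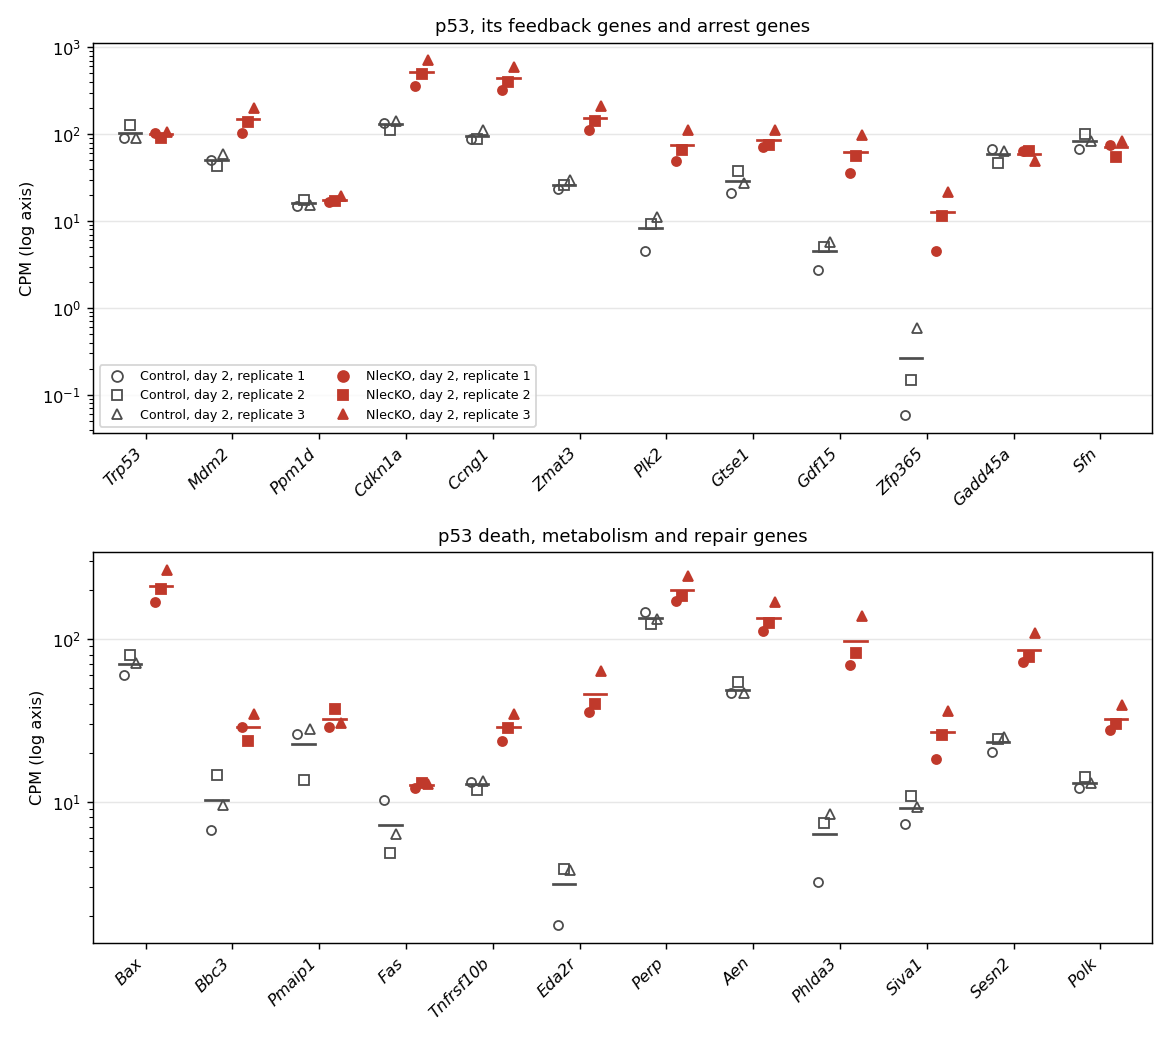
CPM on a log axis in each of the 3 Control (open) and 3 NlecKO (filled) libraries of day 2 for p53, its feedback and arrest genes (top) and its death, metabolism and repair genes (bottom). Trp53 and Gadd45a overlap between groups, while Cdkn1a goes from 111 to 142 CPM in Control to 362 to 704 CPM in NlecKO, with replicate 3 highest.

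Ligands of the EGF receptor rose while the co-receptors Erbb2 and Erbb3 fell. The EGF family is built of secreted or shed ligands, 4 receptor kinases that act in pairs, and feedback genes that ERK signalling switches on and that dampen it again, and in crypts it drives stem cell division. Of 7 tested ligands, 4 rose and none fell. Areg, amphiregulin, was at 2.85, 2.56 and 3.91 CPM in Control and 17.1, 49.6 and 81.0 CPM in NlecKO. NlecKO replicate 1 was nearest Control and replicate 3 farthest, and the groups did not overlap (log2 fold change 3.96 ± 0.44, adjusted p = 2.3e-05). Ereg, epiregulin, was at 1.86, 1.74 and 1.77 CPM against 6.50, 18.4 and 23.5 CPM (log2 fold change 3.12 ± 0.39). Btc, betacellulin, was at 5.59, 4.79 and 6.91 CPM against 10.96, 26.3 and 34.1 CPM (log2 fold change 2.04 ± 0.26). Hbegf was at 11.6, 8.09 and 9.91 CPM against 16.3, 23.3 and 41.0 CPM (log2 fold change 1.45 ± 0.23). These 3 showed the same order of NlecKO libraries as Areg. Tgfa was at 30.2, 25.1 and 27.9 CPM against 32.2, 29.3 and 30.9 CPM (adjusted p = 0.42), and Egf did not pass either (log2 fold change -0.06). On the authors' TPM scale, which corrects for transcript length, mean Areg was 3.79 in Control and 54.8 in NlecKO, while mean Tgfa was 9.24 and 9.37, so Areg lay below Tgfa in Control and above it in NlecKO.

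Erbb2, the receptor without a ligand of its own, was at 217, 211 and 207 CPM in Control and 150, 137 and 121 CPM in NlecKO (log2 fold change -0.64 ± 0.08, adjusted p = 3.9e-05). Erbb3, its kinase-poor partner, was at 410, 323 and 503 CPM against 287, 248 and 185 CPM (log2 fold change -0.78 ± 0.17, adjusted p = 0.0035). Both were lower in every NlecKO library than in any Control library. Egfr was at 38.2, 38.6 and 37.7 CPM against 36.8, 46.3 and 56.0 CPM and did not pass (adjusted p = 0.11). Of 13 feedback and target genes, 5 rose and none fell (median log2 fold change 0.37). Dusp6, the ERK phosphatase, was at 16.9, 13.9 and 21.0 CPM against 34.0, 50.01 and 67.8 CPM (log2 fold change 1.55 ± 0.28). Etv4, an ETS factor downstream of ERK, was at 3.78, 7.23 and 7.28 CPM against 23.8, 35.2 and 64.2 CPM (log2 fold change 2.72 ± 0.31). Spry4, a Sprouty inhibitor, was at 1.40, 2.19 and 2.62 CPM against 5.76, 5.85 and 7.05 CPM (log2 fold change 1.54 ± 0.20). For these 3 the groups lay apart. Over all 23 members tested, 9 were higher and 2 lower. Leaving out single libraries gave 8 to 11 higher and 2 lower, with Dusp4 losing its call without NlecKO replicate 3, and the fit on 6 libraries gave 5 higher and 1 lower.

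Assembly factors of both ribosomal subunits rose by small amounts, and among ribosomal protein genes the paralogs Rpl22l1 and Rps27l changed most. Of 46 tested factors of the large subunit, the particle Notchless acts on, 26 rose and 1 fell, which was Nle1 itself (median log2 fold change 0.38). Of 37 factors of the small subunit, 19 rose and none fell (median 0.40). Of 15 genes of RNA polymerase I and its factors, which make the ribosomal RNA, 6 rose (median 0.16). Nip7, a late factor of the large subunit, was at 30.5, 33.8 and 30.5 CPM in Control and 45.8, 47.6 and 64.4 CPM in NlecKO (log2 fold change 0.73 ± 0.11). Sbds, which with its partner GTPase evicts Eif6 from the finished large subunit in the cytoplasm, was at 59.5, 48.9 and 57.0 CPM against 86.1, 79.4 and 75.9 CPM (log2 fold change 0.55 ± 0.10). Eif6 was at 193, 168 and 174 CPM against 225, 232 and 266 CPM (log2 fold change 0.43). All 3 genes were higher in every NlecKO library. Mak16 was at 27.4, 31.8 and 29.2 CPM against 43.8, 54.2 and 65.4 CPM (log2 fold change 0.88 ± 0.17). For the small subunit, Utp20 was at 49.99, 65.2 and 59.9 CPM against 90.6, 103 and 139 CPM (log2 fold change 0.93 ± 0.18). Again no library of one group reached the other. Nop58, a core protein of the RNA particles that methylate ribosomal RNA, was at 80.5, 93.0 and 86.1 CPM against 121, 136 and 174 CPM (log2 fold change 0.73).

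Mdn1, the ATPase that releases Notchless, did not pass. It was at 92.6, 111 and 113 CPM against 103, 122 and 145 CPM (adjusted p = 0.43). Bop1, a large-subunit factor of the PeBoW complex, was at 86.3, 110 and 79.3 CPM against 102, 97.7 and 121 CPM (adjusted p = 0.29), and Pes1 of the same complex had an adjusted p of 0.087. Wdr12, the remaining member, rose from 20.02, 24.1 and 21.6 CPM to 26.4, 35.2 and 44.5 CPM (log2 fold change 0.69 ± 0.16, adjusted p = 0.0054), a call lost without NlecKO replicate 3. The counts of factors that rose changed when libraries were left out. Without NlecKO replicate 3 they were 9, 7 and 1 for the large subunit, the small subunit and polymerase I. Without Control replicate 1 they were 15, 10 and 1, without Control replicate 3 they were 17, 9 and 1, and in the fit on 6 libraries 2, 1 and 0.

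Of 82 tested ribosomal protein genes, 6 rose and 1 fell (median log2 fold change 0.19), and the share that rose, 7.32%, was close to the 7.33% of all genes tested. Log2 fold changes were positive in 77 of the 82, with 29 higher at an unadjusted p under 0.05. The count that rose depended on the setting, with 15 by DESeq2, 18 with a filter of 2 CPM, 20 with a term for sex, 11 without NlecKO replicate 1 and 1 in the fit on 6 libraries. Rpl22l1, a paralog of the large-subunit protein Rpl22, was at 93.0, 96.1 and 92.4 CPM in Control and 48.8, 43.4 and 45.2 CPM in NlecKO. The spread within each group was small beside the difference (log2 fold change -1.03 ± 0.11, adjusted p = 1.2e-05). Rpl22 was at 194, 215 and 198 CPM against 208, 209 and 242 CPM and did not pass (adjusted p = 0.44). Rps27l, a paralog of the small-subunit protein Rps27 and a gene p53 is known to induce, was at 127, 128 and 138 CPM against 201, 285 and 316 CPM (log2 fold change 1.03 ± 0.13). It is one of the promoters with the p53 element printed above. Rps27 was at 183, 195 and 127 CPM against 199, 153 and 178 CPM, with overlap (adjusted p = 0.85). The other 5 that rose, with log2 fold changes of 0.28 to 0.38, each lost their call when single libraries were left out, among them Control replicates 1 and 3 and NlecKO replicates 2 and 3. Rps27l remained higher and Rpl22l1 lower in each such fit and in the fit on 6 libraries.

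Of 35 tested translation factors, 15 rose and none fell (median log2 fold change 0.24). Of the 7 subunits of eIF2, which carries the initiator tRNA, and of its exchange factor eIF2B, 5 rose (6 by DESeq2). Of 7 subunits of eIF3, the scaffold of the initiation complex, 1 rose (2 by DESeq2) and all 7 had a positive log2 fold change. The difference between these groups was not tested, and Eif2s1, Eif2s2, Eif2b4 and Eif2b5 lost their call without NlecKO replicate 3. Eif1, which checks the start codon, was at 265, 236 and 259 CPM in Control and 327, 349 and 402 CPM in NlecKO (log2 fold change 0.50 ± 0.07). Eif4e, the cap-binding protein, was at 74.5, 79.1 and 84.2 CPM against 101.03, 105 and 123 CPM (log2 fold change 0.47). Neither gene's groups overlapped. The elongation factor Eef2 was at 3837, 4167 and 3795 CPM against 3800, 3622 and 4196 CPM (adjusted p = 0.90), and Eif4g1, the scaffold of the cap complex, had an adjusted p of 0.79. The count was 7 without NlecKO replicate 3 and 0 in the fit on 6 libraries. Of the 31-base words of Eif1 transcripts, 23.0% also occur in another gene, so its level is uncertain.

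Genes of the cell cycle fell, in G2 and M phase and in S phase. Of 38 tested genes of G2 and M phase, 31 fell and 1 rose (median log2 fold change -0.62). Of 35 genes of S phase, 18 fell and none rose (median -0.44). Mki67, the proliferation marker, was at 310, 412 and 356 CPM in Control and 220, 160 and 159 CPM in NlecKO (log2 fold change -0.998 ± 0.16). Cenpf, a kinetochore protein, was at 48.9, 65.1 and 58.4 CPM against 35.5, 24.6 and 26.6 CPM (log2 fold change -0.995 ± 0.20). In both, Control replicate 2 was highest and NlecKO replicate 1 nearest to Control. Ccnb2, cyclin B2, was at 53.1, 72.9 and 53.6 CPM against 37.3, 22.5 and 23.3 CPM (log2 fold change -1.12 ± 0.19). Uhrf1, which keeps DNA methylation at the replication fork, was at 95.6, 138 and 99.9 CPM against 77.6, 51.5 and 64.2 CPM (log2 fold change -0.79 ± 0.16), and 24.2% of its 31-base words are shared with another gene. Cdk1, the kinase of mitotic entry, was at 43.4, 52.9 and 48.3 CPM against 37.5, 27.1 and 31.4 CPM (log2 fold change -0.59 ± 0.18). The groups lay apart for these 3 genes too.

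The member that rose was Ckap2, a microtubule-binding protein whose promoter holds the p53 element printed above. It was at 21.5, 24.3 and 23.7 CPM in Control and 35.4, 34.6 and 40.2 CPM in NlecKO, without overlap (log2 fold change 0.66 ± 0.17, adjusted p = 0.010), and it lost its call without NlecKO replicate 3. Kif23, a midzone motor whose promoter also holds the element, did not pass (adjusted p = 0.35). Marker levels of mature enterocytes moved with the Control libraries. The summed CPM of 38 brush border genes was 55401, 17485 and 46338 in Control and 63051, 60938 and 46675 in NlecKO, lowest in the Control replicate 2 in which Mki67 was highest. Its part in the cell cycle counts was not tested. Without Control replicate 2, 13 members of the G2 and M list and 3 of the S phase list were lower. Without NlecKO replicate 2 these were 14 and 6, without NlecKO replicate 3 they were 13 and 4, and in the fit on 6 libraries 6 and 0. Cdk1 lost its call in several of these fits, as did Mcm7, Mcm6, Dtl and, from the E2F list, E2f7, whose promoters are printed below.

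Promoters of the cell cycle genes were searched for short letters known from factors that act there, TTTGAA (the core of the cell cycle homology region bound by the DREAM and MuvB complexes) and TTTCCCGC and TTTGGCGC (E2F motifs), on both strands, in the same 300 bases. The 2 E2F motifs and TTTGAA differ in letters and can stand in 1 promoter. TTTGAA was in 25 of 33 promoters of G2 and M genes (75.8%), against 20.2% of all promoters in the table and 15% of those of genes tested. In the S phase list it was in 16.1%. TTTCCCGC was in 6 of 31 S phase promoters (19.4%) and TTTGGCGC in 7 of 31 (22.6%), against 1.24% and 0.585% of all promoters. Neither E2F motif was found in the 33 G2 and M promoters. Over all genes that fell, 19.1% held TTTGAA, 4.26% TTTCCCGC and 1.49% TTTGGCGC, against 15%, 2.14% and 1.07% of genes tested. Members that did not fall held the letters too. Among G2 and M genes with TTTGAA, Ckap2 rose and Kif23, Ube2c, Spc25, Hmmr, Anln and Ect2 did not pass. Among S phase genes with an E2F motif, Mcm3, Mcm5, Gins3, Rfc3, Cdt1 and Pola1 did not pass. Whether the letters go with the fall was not tested. These stretches show the arrangement in 4 G2 and M genes, with TTTGAA in capitals, and in 4 genes with an E2F motif in capitals, where GCGGGAAA is TTTCCCGC on the other strand.
Ccnb2 (chr9:70421527-70421572, minus strand): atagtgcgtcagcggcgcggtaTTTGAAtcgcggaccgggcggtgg
Cdk1 (chr10:69352900-69352949, minus strand): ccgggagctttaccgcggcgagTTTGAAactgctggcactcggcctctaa
Mki67 (chr7:135716450-135716499, minus strand): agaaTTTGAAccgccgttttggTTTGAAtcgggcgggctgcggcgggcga
Cenpf (chr1:189688059-189688106, minus strand): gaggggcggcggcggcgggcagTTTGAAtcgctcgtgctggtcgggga
Mcm7 (chr5:138172019-138172070, minus strand): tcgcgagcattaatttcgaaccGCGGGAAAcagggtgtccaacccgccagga
E2f7 (chr10:110745219-110745270, plus strand): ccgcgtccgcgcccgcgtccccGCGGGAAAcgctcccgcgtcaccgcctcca
Dtl (chr1:191575523-191575574, minus strand): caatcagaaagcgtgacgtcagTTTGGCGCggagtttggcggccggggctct
Mcm6 (chr1:128359723-128359774, minus strand): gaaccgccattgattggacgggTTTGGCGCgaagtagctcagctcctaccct

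Among 26 tested E2F factors, pocket proteins, G1 cyclins and inhibitors, 11 fell and 3 rose (median log2 fold change -0.06). E2f8, an atypical repressor that S phase cells make, was at 58.4, 74.3 and 61.2 CPM in Control and 33.7, 22.5 and 26.1 CPM in NlecKO (log2 fold change -1.24 ± 0.16, adjusted p = 4.9e-05). Ccnd2, cyclin D2, rose from 241, 347 and 279 CPM to 425, 486 and 771 CPM (log2 fold change 0.96 ± 0.20), the opposite direction. Neither gene's groups overlapped. Cdkn2c, the p18 inhibitor of the cyclin D kinases, was at 20.4, 25.6 and 18.5 CPM against 14.1, 7.80 and 8.55 CPM (log2 fold change -1.09 ± 0.19). Cdkn1b (p27) was at 76.5, 77.5 and 80.6 CPM against 62.9, 52.0 and 44.98 CPM (log2 fold change -0.55 ± 0.13). Cdkn2d (p19), of the same family as Cdkn2c, was at 6.17, 8.23 and 7.07 CPM against 5.01, 4.15 and 3.81 CPM (log2 fold change -0.72 ± 0.18), a call lost without Control replicate 2 or NlecKO replicate 3. These 3 inhibitors fell and Cdkn1a rose. Rb1, the retinoblastoma protein, was at 85.2, 75.4 and 85.0 CPM against 77.6, 83.1 and 80.3 CPM (adjusted p = 0.87), and Ccne1 (cyclin E1) had an adjusted p of 0.89. Without NlecKO replicate 3 the count that fell was 5, with Cdkn1b no longer among them, without Control replicate 2 it was 7, and in the fit on 6 libraries it was 1, E2f8.

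Of 26 tested genes of DNA recombination and checkpoint, 12 fell and none rose (median log2 fold change -0.45), and all 12 homologous recombination genes among them had a negative log2 fold change, with 8 passing. Bard1, the partner of Brca1, was at 10.5, 14.4 and 10.8 CPM in Control and 7.18, 6.89 and 5.23 CPM in NlecKO (log2 fold change -0.89 ± 0.14). Rad54l was at 24.8, 34.4 and 26.6 CPM against 19.0, 11.7 and 13.6 CPM (log2 fold change -0.96 ± 0.19). Atm, the kinase that senses DNA breaks, was at 34.4, 39.6 and 40.4 CPM against 28.4, 25.1 and 25.4 CPM (log2 fold change -0.54 ± 0.10). The groups did not overlap in any of the 3. The count was 8 without Control replicate 2 or NlecKO replicate 3, and none passed in the fit on 6 libraries, where edgeR had 4 residual degrees of freedom, against 12 and 13 by edgeR and DESeq2 on 24 libraries and 19 at an unadjusted p under 0.05.

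In the Myc network, 5 of 13 tested members fell and none rose, and Myc itself was not among them. Myc was at 82.9, 121 and 105 CPM in Control and 104, 127 and 187 CPM in NlecKO, with overlap (log2 fold change 0.44, adjusted p = 0.15). Mycn was at 10.6, 14.2 and 8.51 CPM against 3.28, 2.95 and 2.35 CPM (log2 fold change -1.93 ± 0.25). Mycl1, the third Myc gene, was at 38.2, 39.7 and 40.1 CPM against 24.5, 12.1 and 13.01 CPM (log2 fold change -1.26 ± 0.25). For both, the NlecKO libraries lay below Control without overlap. Mxd3, a Max partner made in cycling cells, was at 4.71, 6.71 and 4.02 CPM against 1.61, 1.16 and 1.05 CPM (log2 fold change -1.96 ± 0.22). Mlxip (MondoA), a glucose-sensing relative, was at 146, 183 and 161 CPM against 105, 88.6 and 82.2 CPM (log2 fold change -0.83 ± 0.10). Mycn, Mxd3 and Mlxip also passed in the fit on 6 libraries. The fifth, Mnt, lost its call without Control replicate 2, NlecKO replicate 2 or NlecKO replicate 3.

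Transcription factors that set intestinal identity were lower in part. Of 19 tested, 7 fell and none rose (median log2 fold change -0.20). Cdx1, a caudal homeobox factor, was at 212, 284 and 196 CPM in Control and 155, 108 and 122 CPM in NlecKO (log2 fold change -0.84 ± 0.16). Klf5, a factor of crypt progenitors, was at 338, 413 and 358 CPM against 259, 243 and 249 CPM (log2 fold change -0.56 ± 0.11). The groups lay apart in both. Cdx2 was at 244, 302 and 238 CPM against 232, 180 and 171 CPM (log2 fold change -0.43 ± 0.11). Gata4, which marks the proximal intestine, was at 299, 259 and 273 CPM against 273, 230 and 264 CPM and its groups overlapped (adjusted p = 0.48). The count was 3 without NlecKO replicate 2, 4 without Control replicate 2, 5 without NlecKO replicate 3 and 0 in the fit on 6 libraries. Cdx2 was among those that lost their call. Nothing in the list was called in that fit on 6 libraries by edgeR, against 7 by DESeq2 and 7 at an unadjusted p under 0.05 on 24 libraries.

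Genes of cholesterol synthesis and uptake fell. Cells make cholesterol from acetyl-CoA through mevalonate and squalene, and SREBP-2 (Srebf2) switches on the enzymes and the uptake of cholesterol. Of 25 tested members, 12 fell and none rose (median log2 fold change -0.41), 7 of 18 enzymes and 5 of 7 uptake genes and regulators. Srebf2 was at 265, 295 and 259 CPM in Control and 212, 205 and 202 CPM in NlecKO (log2 fold change -0.40 ± 0.09). Sqle, squalene epoxidase, was at 90.7, 92.9 and 68.6 CPM against 60.6, 55.4 and 51.8 CPM (log2 fold change -0.59 ± 0.12). Both had all NlecKO libraries below Control. Mvd, which forms isopentenyl diphosphate, was at 37.8, 46.8 and 33.5 CPM against 25.2, 23.0 and 26.3 CPM (log2 fold change -0.66 ± 0.15). Insig1, a sterol-sensing retention protein, was at 166, 121 and 100 CPM against 115, 69.7 and 55.0 CPM (adjusted p = 0.10). The count was 5 without NlecKO replicate 3, 8 without Control replicate 1 or NlecKO replicate 2, and 1 in the fit on 6 libraries.

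**Figure D3:**
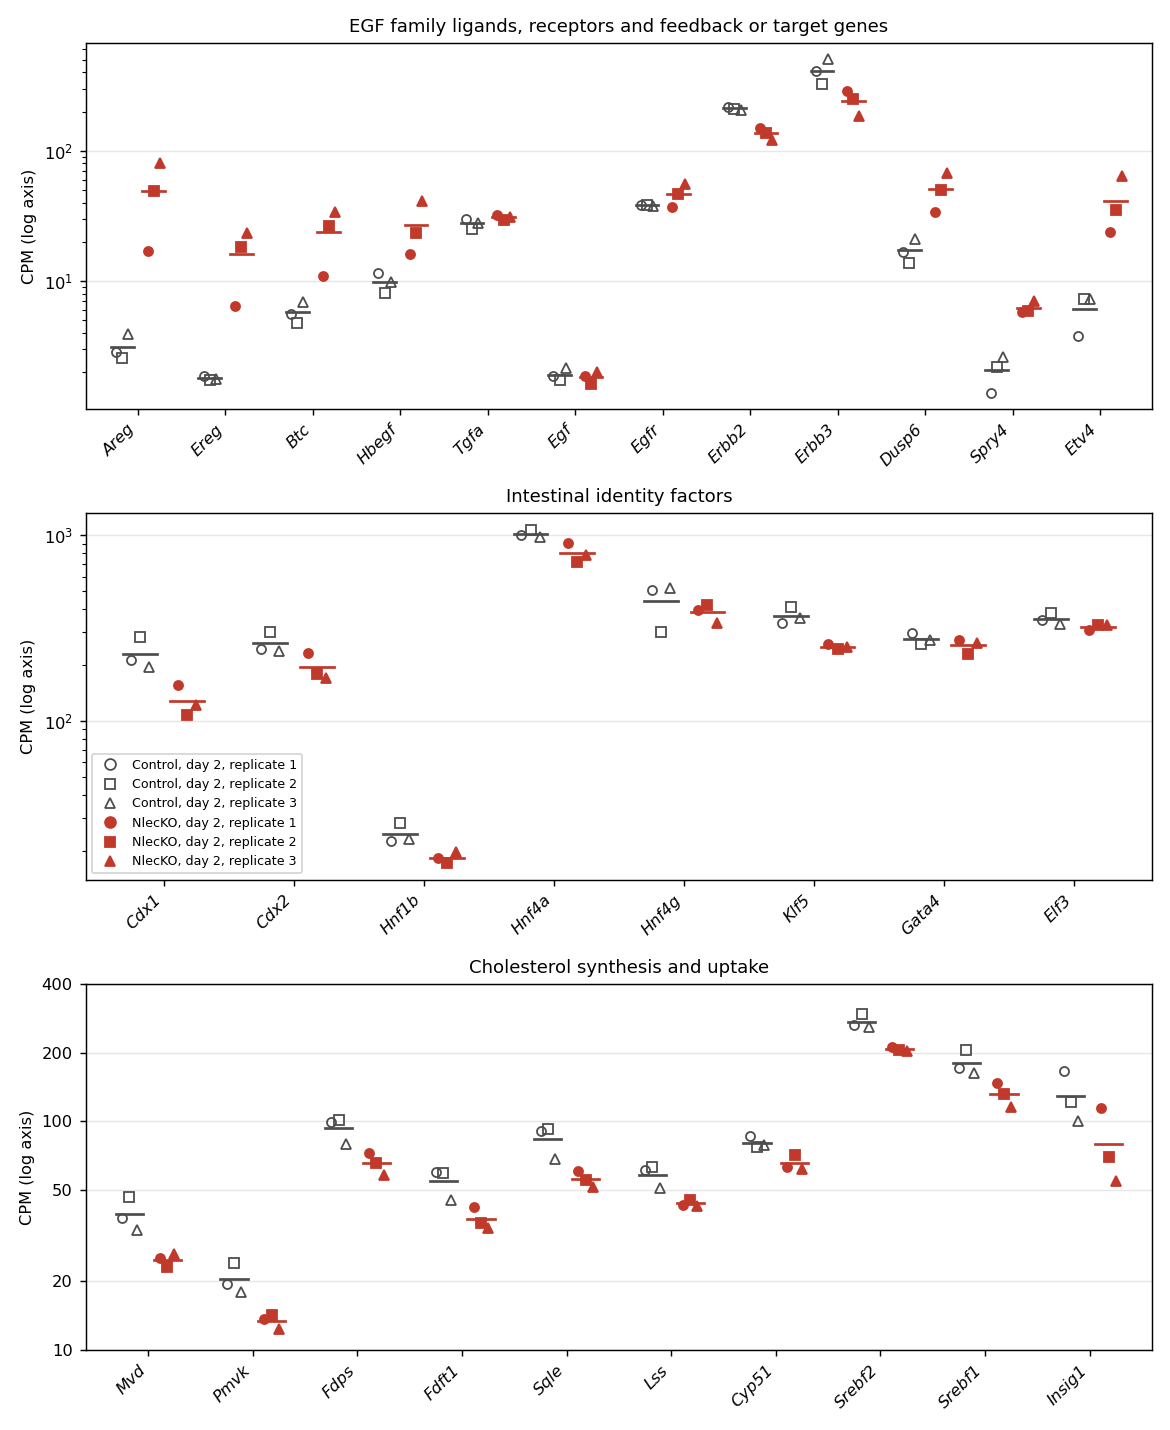
CPM on a log axis in each of the 3 Control (open) and 3 NlecKO (filled) libraries of day 2 for the EGF family (top), intestinal identity factors (middle) and cholesterol genes (bottom). Areg goes from 2.56 to 3.91 CPM in Control to 17.1 to 81.0 CPM in NlecKO, Erbb2 goes from 207 to 217 CPM to 121 to 150 CPM, and Insig1 overlaps between groups.

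Peptide hormones and granule genes of enteroendocrine cells rose, and the transcription factors of that lineage did not pass. Of 31 tested members, 11 rose and none fell (median log2 fold change 0.47). These were 5 of 9 hormones and 6 of 10 granule proteins and enzymes, with 0 of 12 transcription factors passing in either direction by edgeR or DESeq2, although at an unadjusted p under 0.05 there was 1 in each direction. Chgb, a granule protein, was at 265, 292 and 240 CPM in Control and 427, 454 and 503 CPM in NlecKO (log2 fold change 0.79). Tph1, which makes serotonin, was at 16.2, 11.8 and 11.6 CPM against 26.4, 24.2 and 30.4 CPM (log2 fold change 1.03 ± 0.19). Gip, the incretin of K cells, was at 219, 159 and 195 CPM against 283, 292 and 329 CPM (log2 fold change 0.66). Ghrl, the ghrelin gene, was at 15.9, 15.9 and 14.5 CPM against 23.1, 29.6 and 23.7 CPM (log2 fold change 0.72). In none of the 4 did the groups overlap. Neurog3, which starts the lineage, was at 5.94, 8.64 and 5.03 CPM against 9.04, 5.15 and 4.05 CPM and overlapped (adjusted p = 0.82). Neurod1 was at 8.03, 9.38 and 8.25 CPM against 8.54, 8.13 and 7.70 CPM (adjusted p = 0.80). The summed level of the list was 1036, 1076 and 937 CPM in Control and 1608, 1700 and 2059 CPM in NlecKO. A 2-sided exact permutation test gave p = 0.10, the smallest that 3 against 3 libraries allows, and 0.50 after adjustment over 15 such measures. The count was 7 without NlecKO replicate 3 and 5 in the fit on 6 libraries.

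The other mature cell types showed few calls. None of 22 Paneth cell, 21 goblet cell or 18 tuft cell markers passed by edgeR, against 0, 2 and 0 by DESeq2 and 2, 2 and 1 at an unadjusted p under 0.05. Muc2, the main intestinal mucin, was at 1360, 1540 and 1506 CPM in Control and 1188, 1770 and 1822 CPM in NlecKO (adjusted p = 0.62). Lyz1, the Paneth cell lysozyme, was at 4797, 6907 and 3907 CPM against 6410, 5267 and 5489 CPM (adjusted p = 0.77). Both overlapped. Of 38 enterocyte brush border markers 1 rose (2 by DESeq2), while 37 had a positive log2 fold change (median 0.50). The call was lost without Control replicate 2 or 3 or NlecKO replicate 1. Mgam, a brush border maltase, was at 5427, 1799 and 4442 CPM against 5330, 7060 and 5306 CPM, with Control replicate 2 far below the rest. None of 25 lymphocyte markers passed by edgeR, by DESeq2 or at an unadjusted p under 0.05. The summed lymphocyte level was 522 to 902 CPM in Control and 699 to 912 CPM in NlecKO, and that of 17 stromal and endothelial markers 51.1 to 93.8 CPM and 68.1 to 100 CPM. Of the latter, 3 rose (5 by DESeq2), 7 without Control replicate 2 or without NlecKO replicate 2, 2 without NlecKO replicate 3 and 0 in the fit on 6 libraries, among them Pecam1 (log2 fold change 1.03) at 1.51, 1.30 and 1.07 CPM against 2.91, 3.11 and 2.19 CPM.

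Stem cell markers split. Of 30 tested, 5 rose and 4 fell (median log2 fold change -0.05), and DESeq2 called 6 higher and 7 lower. The summed level was 3273, 4624 and 3651 CPM in Control and 3166, 2573 and 2916 CPM in NlecKO, without overlap (2-sided exact permutation p = 0.10, the smallest possible, and 0.50 after adjustment over 15 measures). Olfm4, a member of this sum, alone ranged from 490.4 to 1598.5 CPM over the 6 libraries. Of the 30 members, 14 had a positive log2 fold change. Smoc2 was at 88.8, 110 and 95.1 CPM in Control and 68.6, 46.8 and 48.8 CPM in NlecKO (log2 fold change -0.84 ± 0.19). Phlda1 was at 16.6, 24.2 and 25.2 CPM against 43.6, 59.3 and 97.6 CPM (log2 fold change 1.60 ± 0.22). Hopx, a marker of reserve stem cells, was at 66.3, 66.3 and 63.5 CPM against 86.0, 85.4 and 85.9 CPM (log2 fold change 0.39). The libraries of each group were close together and did not overlap in Hopx. Lgr5, the Wnt-responsive stem cell receptor, was at 28.2, 36.1 and 26.4 CPM against 25.4, 18.6 and 17.7 CPM, without overlap, and did not pass (log2 fold change -0.56, adjusted p = 0.16). Ascl2, its companion transcription factor, was at 14.3, 19.4 and 12.6 CPM against 16.4, 10.5 and 16.0 CPM (adjusted p = 0.69). The count of stem cell markers that fell was 2 without Control replicate 2 or NlecKO replicate 2 or 3, and 3 rose without Control replicate 1 or NlecKO replicate 3.

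Genes of the fetal and regenerating epithelium rose. Of 27 tested, 16 rose and none fell (median log2 fold change 1.48). The list is not separate from the others. Of its 29 members before filtering, 8 are also on another list, among them Areg and Ereg, given above with the EGF family. Anxa2, a membrane-binding annexin, was at 503, 322 and 472 CPM in Control and 657, 782 and 995 CPM in NlecKO (log2 fold change 0.91). S100a6 was at 10.5, 11.3 and 14.2 CPM against 25.3, 54.6 and 117 CPM (log2 fold change 2.45 ± 0.44). Anxa3 was at 3.03, 3.26 and 3.37 CPM against 7.37, 14.4 and 35.8 CPM (log2 fold change 2.55 ± 0.46). In all 3 genes NlecKO replicate 1 was nearest Control and replicate 3 farthest, and the groups lay apart. Ly6a (Sca-1), often used to mark this state, was at 0.756, 1.37 and 1.18 CPM against 1.86, 5.56 and 10.9 CPM and just missed the threshold (adjusted p = 0.051). Of 19 targets and partners of YAP, 8 rose and 2 fell, while Yap1 was at 105, 109 and 111 CPM against 114, 103 and 119 CPM (adjusted p = 0.68). Edn1, endothelin, was at 0.582, 1.19 and 1.02 CPM against 1.42, 4.40 and 12.6 CPM (log2 fold change 2.60 ± 0.51). Without NlecKO replicate 3 the fetal count was 10 and the YAP count 4 higher and 0 lower. In the fit on 6 libraries these were 3 and 0.

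Smaller receptor and structural families held single large changes. Of 19 TNF receptors, 4 rose and 3 fell. Tnfrsf12a, the TWEAK receptor, was at 4.07, 6.49 and 5.94 CPM in Control and 17.6, 34.2 and 51.0 CPM in NlecKO (log2 fold change 2.61 ± 0.28), and Tnfrsf14 (HVEM) fell from 30.7, 42.4 and 31.5 CPM to 22.5, 22.6 and 15.2 CPM (log2 fold change -0.80 ± 0.15). Both pairs of groups lay apart. Of 12 keratins, 5 rose, 3 without Control replicate 2 and 1 in the fit on 6 libraries. Krt15, a keratin of squamous epithelia and long-lived progenitors, was at 2.62, 2.08 and 2.62 CPM against 6.50, 9.55 and 16.8 CPM (log2 fold change 2.14 ± 0.27). Krt8 and Krt19, the main simple keratins, did not pass (adjusted p = 0.24 and 0.52). Of 22 Notch pathway genes 3 rose, all with larger values in replicate 3, and 1 fell. The member that fell was Hes1, the main Notch target, at 49.2, 70.9 and 50.1 CPM against 42.8, 40.8 and 47.4 CPM (adjusted p = 0.047), which lost its call without Control replicate 2 and without any one of the 3 NlecKO replicates.

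By the ranking rule for the largest changes (genes averaging at least 5 CPM in the higher group, groups not overlapping), the 15 raised most were led by Slc4a11, Zfp365 and Atg9b, and the 15 lowered most by Gsdmc3, Gsdmc2 and Gsdmc4. Hsd11b2, which inactivates glucocorticoids, was among the latter at 23.6, 28.2 and 21.5 CPM in Control and 9.22, 7.06 and 3.85 CPM in NlecKO (log2 fold change -1.86). Capn13, a calpain protease, was at 19.6, 25.4 and 19.7 CPM against 7.61, 6.14 and 7.82 CPM (log2 fold change -1.57 ± 0.19). Rbm20, a splicing factor, was at 4.54, 6.79 and 5.35 CPM against 2.17, 1.70 and 1.58 CPM (log2 fold change -1.58 ± 0.21). That no library of one group reached the other was required by the rule. Cpt1c, a carnitine palmitoyltransferase relative, was at 0.407, 0.260 and 0.589 CPM against 3.22, 7.22 and 14.1 CPM (log2 fold change 4.06 ± 0.46). Abcb1b, a multidrug efflux pump, was at 1.86, 2.30 and 3.64 CPM against 25.8, 46.4 and 70.3 CPM (log2 fold change 4.15 ± 0.39). Crip2, a LIM protein, was at 0.756, 1.74 and 1.93 CPM against 19.3, 35.9 and 79.9 CPM (log2 fold change 4.82 ± 0.52). In these 3, NlecKO replicate 1 was nearest Control. Gsdmc2, a gasdermin, was at 21.4, 67.7 and 75.2 CPM against 2.54, 1.99 and 7.01 CPM. As 63.9% of the 31-base words of Gsdmc2, 59.5% of Gsdmc3 and 51.2% of Gsdmc4 also occur in another gene, their counts cannot be assigned with certainty to 1 copy, and Gsdmc3 was higher in Control on day 2 than on day 1.

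The 3 NlecKO libraries differed in how far they stood from Control. By Y-linked counts NlecKO replicates 1 and 2 and Control replicate 1 were male and the other 3 mice female, so sex was not balanced between the groups and NlecKO replicate 3 was the only female of its group. The part of sex in the order below was not tested, and with a term for sex 2864 genes were called on day 2, against 2581. The genes counted here were called on these same libraries, and without NlecKO replicate 3 the calls were 526 higher and 680 lower. The order is therefore partly fixed by the choice of genes, and it was not computed over all genes tested. Among the 1214 genes that rose, replicate 3 was farthest from Control in 978 (80.6%) and replicate 1 nearest in 847 (69.8%). Among the 1367 that fell, replicate 3 was farthest in 721 (52.7%), replicate 2 in 519 (38.0%), and replicate 1 nearest in 955 (69.9%). Nle1 did not follow this order, at 7.30, 5.52 and 7.25 CPM. Control replicate 2 was the highest Control library in 917 of the genes that fell (67.1%). Over the members of the p53 feedback and arrest list, the median of log2(CPM + 1) minus the Control mean was 0.85, 1.24 and 1.67 in NlecKO replicates 1, 2 and 3, and in the fetal list 0.60, 0.88 and 1.23. In the G2 and M list it was -0.39, -0.78 and -0.61. The enteroendocrine list stood at 0.42, 0.44 and 0.40, although its summed CPM, given above, was highest in NlecKO replicate 3.

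**Figure D4:**
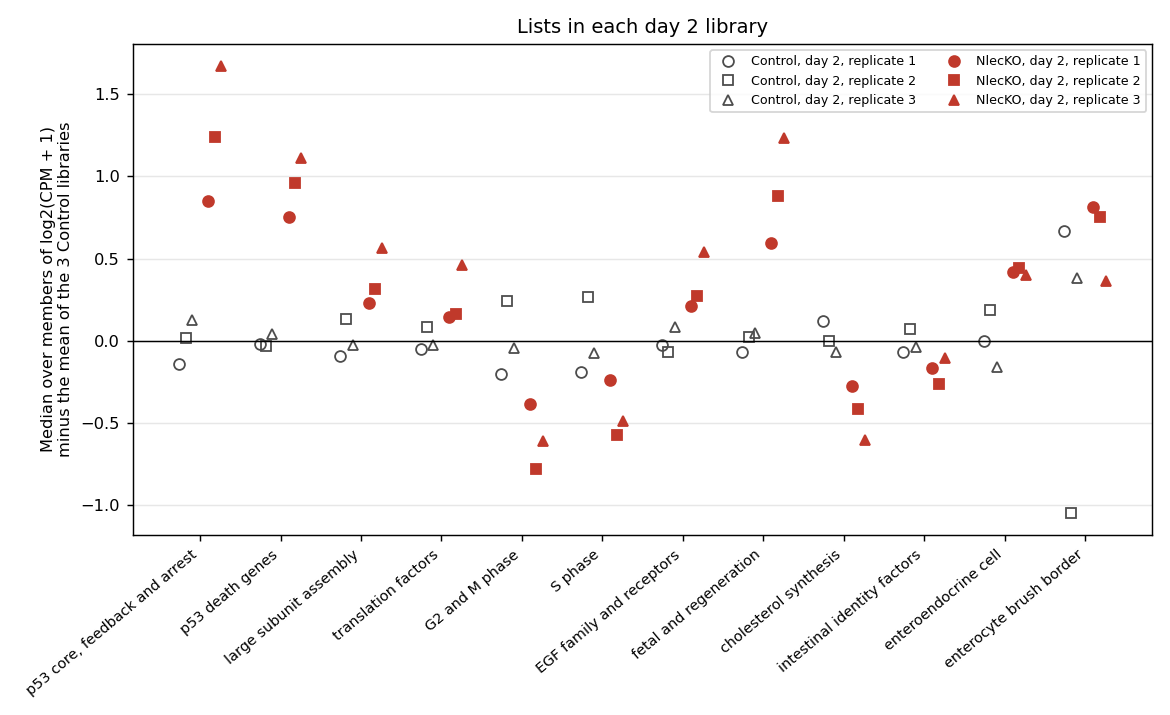
Median over the tested members of each list of log2(CPM + 1) minus the mean of the 3 Control libraries, for each Control (open) and NlecKO (filled) library of day 2. The p53 lists lie above 0 in all 3 NlecKO libraries with replicate 3 highest, and Control replicate 2 stands apart at -1.05 in the enterocyte list.

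The same loss was measured 1 day earlier and in crypts that had also lost Apc. On day 1, 411 genes passed (2.48%, with 0.87% higher and 1.61% lower), and in Apc-lost crypts on day 2, 5775 (34.9%, with 19.5% higher and 15.4% lower). Direct tests of the difference gave 1 gene between days (0.00604%) and 868 between the Apc settings (5.24%, with 3.29% higher and 1.95% lower in Apc-lost crypts). For the difference between days, 1242 genes were higher and 909 lower with an unadjusted p under 0.05, and DESeq2 called 131 and 81. The Apc comparison uses a separate control group, ApccKO, while day 1 has a Control group of its own. Control libraries differed between the days in 27 genes (0.163%), 0.109% higher and 0.0544% lower on day 2.

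Genes that rose on day 2 had a median log2 fold change of 0.62 there, 0.22 on day 1 and 0.52 in Apc-lost crypts, and those that fell had -0.51, -0.21 and -0.47. The first value of each was fixed by the choice of genes. Of the 1214, 116 also rose on day 1 and 805 in Apc-lost crypts, with 1 and 19 going the other way. In the large subunit list 1 rose and 2 fell on day 1, and in the small subunit list, the translation factors, the EGF family and the fetal list none passed by edgeR. DESeq2 called 0, 0, 6 and 2 members higher in these 4 lists on day 1, and 0, 1, 8 and 8 were higher at an unadjusted p under 0.05. Of all 16552 genes tested, 350 were higher and 445 lower on day 1 by DESeq2. At an unadjusted p under 0.05, 1171 were higher and 1661 lower. The median log2 fold change of the EGF family was 0.31 on day 1 and 0.28 on day 2, that of the fetal list 0.61 and 1.48. On the difference between days, none of these lists had a member higher by edgeR, while 27, 22, 21, 5 and 9 members were higher at an unadjusted p under 0.05 and 2, 3, 6, 4 and 4 by DESeq2. S phase genes had 21 members lower on day 1 and 18 on day 2, with medians of -0.60 and -0.44. G2 and M genes had 8 and 31 lower by edgeR with close medians, -0.54 and -0.62, and on day 1 DESeq2 called 21 lower and 33 were lower at an unadjusted p under 0.05. For the p53 lists 8, 8 and 7 members rose on day 1. None of the p53, S phase or G2 and M lists had a member called on the difference by edgeR. For the 3 p53 lists DESeq2 called 3, 1 and 1 members higher on the difference, and 7 in each were higher at an unadjusted p under 0.05. For S phase and for G2 and M, DESeq2 called 0, and at an unadjusted p under 0.05 there were 2 S phase members higher and 1 G2 and M member lower.

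Single genes showed each pattern. Nle1 had log2 fold changes of -2.14, -1.76 and -1.82 on day 1, on day 2 and in Apc-lost crypts. Rpl22l1 had -0.96, -1.03 and -1.21, nearly alike. Zmat3 had 1.51, 2.56 and 2.82, and Cdkn1a 1.30, 2.01 and 2.94, in the same order of settings. Of their list, p53 feedback and arrest, 0 members were called on the difference between Apc settings by edgeR. DESeq2 called 3 higher and 4 were higher at an unadjusted p under 0.05, against 726 and 1936 of all genes tested. In the p53 death list edgeR called 3 higher and 1 lower, and in the p53 metabolism and repair list 5 higher and 0 lower. Klf5 fell on day 2 in Apc-intact crypts (-0.56) and rose in Apc-lost crypts (0.34, adjusted p = 0.016), and this difference passed (adjusted p = 0.0017). Krt15 rose in both, by 2.14 and 4.77, and more in Apc-lost crypts (adjusted p of the difference 0.00060). Lgr5 fell in Apc-lost crypts by 2.57 on the log2 scale, and the difference from Apc-intact crypts passed (adjusted p = 0.0043). Igfbp4 rose by 0.70 in Apc-intact crypts and fell by 0.94 in Apc-lost crypts (adjusted p of the difference 0.00055). Mycn fell in both, with no difference called (adjusted p = 0.15).

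**Figure D5:**
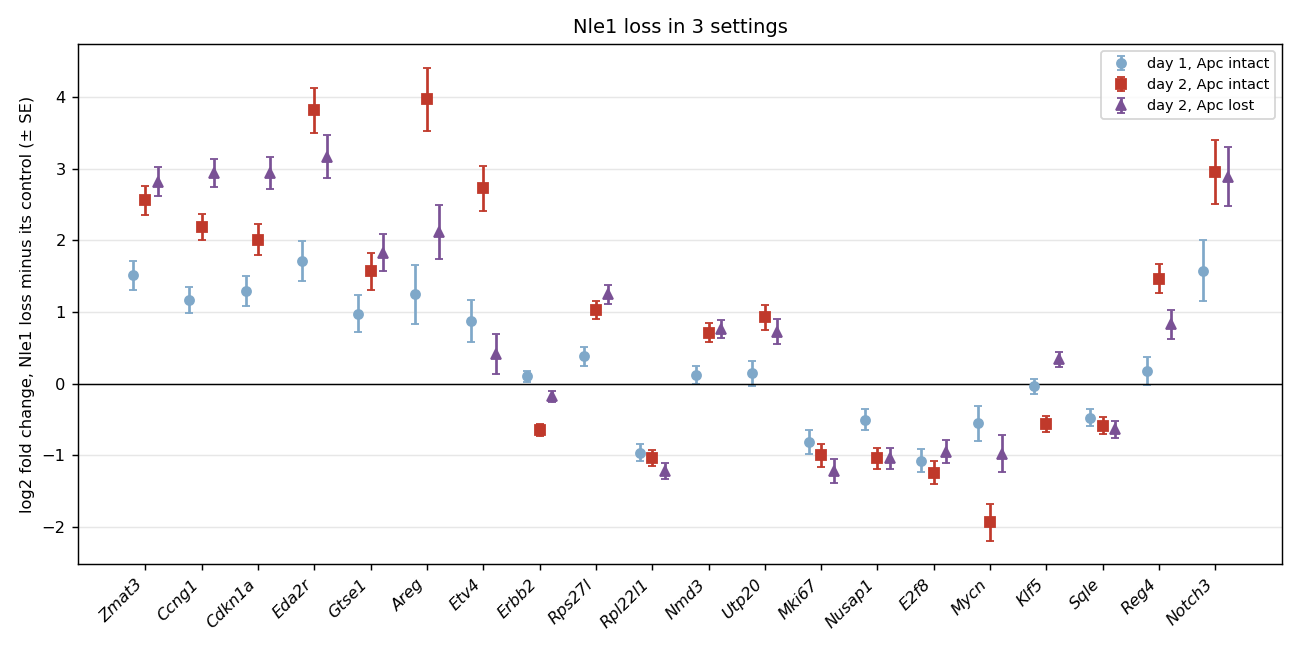
log2 fold change of Nle1 loss against its own control, with its SE, for 20 genes on day 1 with Apc intact, on day 2 with Apc intact and on day 2 with Apc lost. Rpl22l1 is nearly alike in the 3 settings (-0.96, -1.03 and -1.21) and Klf5 changes sign between Apc-intact and Apc-lost crypts.

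Class II antigen presentation genes had Control levels that lay apart on the 2 days. The list held 10 MHC class II genes, of which 9 were tested. The sum of all 10 was 148, 142 and 259 CPM in Control and 498, 754 and 275 CPM in NlecKO on day 1. On day 2 it was 946, 1226 and 885 CPM in Control and 603, 657 and 217 CPM in NlecKO, so Control was below NlecKO on day 1 and above it on day 2, and the NlecKO ranges of the days overlapped. Of the 9 tested, 1 fell on day 2, Ciita, the class II transactivator, at 11.8, 23.9 and 15.6 CPM in Control and 8.05, 9.42 and 3.40 CPM in NlecKO (log2 fold change -1.29 ± 0.37), a call lost without Control replicate 2 or NlecKO replicate 3. The median of the list was 1.46 on day 1 and -0.92 on day 2. Cd74, the invariant chain, was at 407, 616 and 389 CPM against 226, 256 and 77.8 CPM on day 2 and did not pass (adjusted p = 0.15). No member passed by edgeR on the difference between days, against 4 lower by DESeq2 and 7 lower at an unadjusted p under 0.05. H2-DMb1, a gene of the same system, was higher in Control on day 2 than in Control on day 1.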

How the data were processed

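The series sequenced poly(A) RNA from jejunal crypts, 3 mice in each of 8 groups, and the 6 libraries of d2_NlecKO and d2_Control are compared here. The authors deposited estimated counts per gene and TPM for all 24 libraries, made with kallisto 0.43 and the mm9 build, per the submitters' processing notes; the transcript annotation is not given in the sources used here. Their DESeq-normalized table was not used here. Columns were matched to samples by source name. Estimated counts were rounded to whole numbers, genes passing edgeR's filter (minimum count 10; 16552 of 37620) were scaled by TMM, and all 8 groups were fitted together with edgeR 4.0.16 (quasi-likelihood, robust, prior count 2) in R 4.3.3. CPM use the TMM-scaled library sizes, and log2 fold changes are edgeR's, with SE taken as the log2 fold change over the root of its F statistic. TPM in the text are the authors' deposited values. Alternatives were DESeq2 1.42.0, its size factors in edgeR, other filters, fewer libraries, a replicate block, a sex term and leaving out each library. Depth was 18.19M to 26.47M estimated counts per library, and the biological coefficient of variation was 17.6%.

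Genes named were the 15 raised and 15 lowered most (adjusted p under 0.05, at least 5 CPM in the higher group, no overlap, a settled symbol), up to 6 members of each of 43 lists with the smallest p, and members whose role was needed. The members and lists were chosen with earlier results of these data known. Lists can share members, so their counts are not independent. Also on another list were 10 stem cell, 11 Wnt target, 8 fetal, 4 EGF family and 4 keratin members. List symbols that match no tested gene were not analysed here. Some members of the lists are counted but not reported singly here. Same-numbered libraries had deviations correlating at 0.36, -0.14 and -0.02, so the numbers were not treated as pairs. No library pair was identical. Promoters came from RefSeq, build GRCm38.p6, matched by symbol, which covered 10689 of the tested genes. Shared sequence is the share of 31-base words of a gene's GENCODE vM21 transcripts found in another gene.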

Additional observations from a re-analysis of the deposited data

Results flagged for a closer look

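The effect of Nle1 loss differed between day 2 and day 1 in 1 gene by edgeR with Benjamini-Hochberg adjustment. Erbb2 had a difference of -0.74 on the log2 scale (adjusted p = 0.041), which missed the threshold with DESeq2 size factors, without the filter, with the 12 Apc-intact libraries, and without Control replicate 2 or 3 or NlecKO replicate 2 or 3 (adjusted p 0.051 to 0.38 over these).

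Between Apc-lost and Apc-intact crypts on day 2, the 5 highest differences by the naming rule were Sco2 (5.72), Gsdmc2 (5.09), Rgs5 (4.42), Dsg3 (4.38) and Ces2f (3.65), and the 5 lowest were H19 (-5.00), Cym (-4.69), Nos2 (-3.48), Tnfrsf11b (-3.38) and Lrrc4 (-2.56), all as differences of log2 fold changes with edgeR adjusted p under 0.05. Dsg3 lost its call without Control replicate 2 (adjusted p = 0.36). Of the 31-base words of Sco2, 66.2% also occur in Tymp, and of those of Gsdmc2, 63.9% in another gene.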

How the results depend on the processing

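No gene called on day 2 changed direction in any setting run. The 2581 calls (1214 higher, 1367 lower) became 279 (157 and 122) with only the 6 libraries compared and 1502 (705 and 797) with the 12 Apc-intact libraries. The fit on 6 libraries has 4 residual degrees of freedom, against 16 with all 24. Leaving out single libraries gave 1206 to 2818 calls, 526 to 1316 higher and 680 to 1502 lower, lowest without NlecKO replicate 3. With DESeq2 size factors the split was 1307 higher and 1273 lower, and with at least 2 CPM in 3 libraries 1540 and 1185.

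The 1 gene called on the difference between days became 212 with DESeq2, 0 with its size factors, 0 without the filter, 4 with at least 2 CPM, 0 with the 12 Apc-intact libraries and 211 with a term for sex, and leaving out libraries gave 0 to 181 (181 without NlecKO replicate 1). The 27 genes that differed between Control on day 2 and day 1 became 146 with DESeq2, 17 without the filter, 3 with the 12 Apc-intact libraries, 50 with a term for sex and 1 to 51 leaving out libraries. The 868 genes that differed between Apc settings became 492 to 1222 leaving out libraries. The cause of these shifts was not tested.

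With the replicate number as a block, 2486 genes were called on day 2, 2 on the difference between days and 16 between the Control groups. Same-numbered libraries were not shown to be pairs. Depth limits genes under about 1 CPM, where a Control level rests on few counts.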
